A study of Homo sapiens with 6 samples.

Results

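Desmosomes are the spot junctions that fasten the keratin filaments of neighbouring epithelial cells to each other. In a desmosome, cadherins of the desmoglein and desmocollin families bind across the gap between cells, the armadillo proteins plakoglobin and the plakophilins gather on their cytoplasmic tails, and desmoplakin ties this plaque to the keratin filaments. Loss of desmosomes is a known feature of epithelial-to-mesenchymal transition, the process that the study examined when it silenced the lncRNA AC010789.1 in colorectal cancer cells. The 8 genes described here were taken by name: the cadherins DSG2 and DSC2, the armadillo genes JUP, PKP2, PKP3 and PKP4, the plakin gene DSP and the tetraspan membrane gene PERP. They were found as every row of the transcript count table whose GENCODE v29 gene symbol was on this list, which gave 8 genes of 18768 and 51 transcripts of 98803. The rule used no measured value, although the genes were chosen with earlier results of these data known.

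HCT116, an established human colorectal carcinoma line, was transfected with a control siRNA (siRNA-NC, 3 libraries) or with one that silences the lncRNA (si-AC010789.1, 3 libraries). AC010789.1 itself was not analysed here, so that its silencing was not checked in these libraries, and "silenced" follows their labels. The study reports a check of the knockdown in its sequenced samples. The labels number the libraries and do not name their cultures, while the study's text speaks of biological repeats that may differ in cell generation. The p-values measure the spread between these libraries. Library totals were 11277222 to 13443866 counts. Of 6 epithelial line markers, KRT8 and KRT18 were abundant, EPCAM was at 3.10 to 5.59 CPM, CDH17 had at most 2 counts in a library, and KRT19 and VIL1 had no row. CDH1, which encodes E-cadherin and was named after its values were seen, was at 0.675 to 1.05 CPM. These low or missing markers go against what is known of HCT116, and the cells are called by their label. The 6 markers summed to 985 to 1229 CPM in siRNA-NC against 801 to 1041 CPM in si-AC010789.1. Fibroblast markers summed to 55.7 to 66.0 and 61.3 to 66.9 CPM, leukocyte markers to 0 to 0.975 and 0.873 to 1.13 CPM, endothelial markers to 1.73 to 2.48 and 0.873 to 2.51 CPM, and stratified epithelium markers to 4.20 to 4.83 and 3.93 to 4.55 CPM. Of the fibroblast markers, COL1A1 was at 37.8 to 48.0 CPM and PDGFRB at 16.4 to 19.0 CPM. Both were above EPCAM and below KRT8 and KRT18 in every library. DCN was at 1.51 to 2.43 CPM. COL1A2, PTPRC, CD3E, PECAM1, KRT5 and DSG3 had no row, and the part of these markers in the results was not tested.

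Several desmosome genes encode forms of their protein that differ in a stretch of coding sequence, and these stretches are shown because the counts of single transcripts are described by them further on. The sequences were read 5′ to 3′ from the GENCODE v29 transcripts (GRCh38). Desmoplakin has a long and a short form, which part within exon 23. DSP-201 (ENST00000379802) keeps the whole of the exon, to position 7581569 on the plus strand of chromosome 6. In DSP-202 (ENST00000418664) the exon ends at 7579772, and both go on with the next exon at 7582642, so that 1797 coding bases (599 codons) of the rod region are left out and the coding length falls from 8613 to 6816 bases. In the following lines, capitals mark the first 30 bases of the last exon, which the forms share, and lower case marks the last 30 bases of exon 23, which differ.
DSP-201: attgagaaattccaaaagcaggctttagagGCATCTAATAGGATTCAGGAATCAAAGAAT
DSP-202: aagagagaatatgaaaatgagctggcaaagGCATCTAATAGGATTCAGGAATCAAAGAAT

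Desmocollin 2 also has a longer form a and a shorter form b, which lacks the end of the cytoplasmic tail. The b form, DSC2-201 (ENST00000251081), has an exon that the a form, DSC2-202 (ENST00000280904), skips. The coding part of this exon lies at chr18:31068312-31068344 on the minus strand and supplies the last 11 codons before the stop. PKP4-202 (ENST00000389759) carries an added coding exon of 129 bases (43 codons) at chr2:158676739-158676867 on the plus strand, which PKP4-201 (ENST00000389757) lacks. Capitals mark the added coding bases, and lower case marks the 15 bases before them and the stop codon or the 15 bases after them.
DSC2-201: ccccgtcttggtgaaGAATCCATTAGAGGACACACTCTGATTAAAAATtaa
PKP4-202: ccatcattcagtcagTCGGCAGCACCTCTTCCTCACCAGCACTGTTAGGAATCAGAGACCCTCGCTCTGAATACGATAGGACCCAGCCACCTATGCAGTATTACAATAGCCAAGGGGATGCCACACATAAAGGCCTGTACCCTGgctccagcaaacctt

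All 8 desmosome genes were counted in every library and passed the filter on low counts. None of the 8 passed the test between si-AC010789.1 and siRNA-NC (edgeR quasi-likelihood, adjusted p from 0.138 to 0.835), where 0.944% of the 13764 genes tested did. DESeq2 also called 0 of the 8 (5.21% of the genes that it gave an adjusted p), and 1 of the 8, PERP, had an unadjusted edgeR p under 0.05, as 17.2% of all genes tested had. Of the 8, 4 had a higher and 4 a lower mean with AC010789.1 silenced. The sizes ran from 0.04 to 0.19 on the log2 scale without regard to sign, and the median of the 8 was 0.007, beside -0.0006 over all genes. In bulk RNA, fewer cells that express a gene and less RNA per cell cannot be told apart.

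In the following values CPM is the count of the gene's summed transcripts scaled to library size, and log2 fold changes are si-AC010789.1 minus siRNA-NC with the standard error (SE) of the edgeR fit and a 95% interval for that gene alone. Of the cadherins, DSG2 (ENSG00000046604.12, chr18:31498043-31549008, plus strand) encodes desmoglein 2, the desmoglein of simple epithelia. It was at 379, 408 and 374 CPM in siRNA-NC and at 361, 388 and 370 CPM in si-AC010789.1. The groups overlapped, with replicate 2 the highest in both. The means were 387 ± 18.4 and 373 ± 13.5 CPM (SD, n = 3 each), a log2 fold change of -0.05 ± 0.05 (SE) with an interval of -0.18 to 0.07 (edgeR adjusted p = 0.658). An antisense gene, DSG2-AS1, overlaps an exon of DSG2 and had no row of its own.

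DSC2 (ENSG00000134755.15, chr18:31058840-31102522, minus strand), whose product pairs with desmoglein in the gap between cells, was much less abundant. It was at 25.8, 28.0 and 29.7 CPM in siRNA-NC and at 30.7, 33.4 and 31.2 CPM in si-AC010789.1. All 3 silenced libraries lay above all 3 controls. The means were 27.8 ± 1.97 and 31.8 ± 1.42 CPM (SD, n = 3 each). The log2 difference was 0.19 ± 0.09 (SE) with an interval of -0.02 to 0.40 (edgeR adjusted p = 0.326).

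JUP (ENSG00000173801.16, chr17:41754604-41786931, minus strand) encodes plakoglobin, also called gamma-catenin, which links the cadherin tails to desmoplakin and is a close relative of beta-catenin. Its values were 829, 883 and 861 CPM in siRNA-NC against 782, 790 and 869 CPM in si-AC010789.1. Silenced replicates 1 and 2 were below all controls, and replicate 3 lay between the upper pair of controls. The means were 858 ± 27.2 and 814 ± 48.0 CPM (SD, n = 3 each), a log2 fold change of -0.08 ± 0.05 (SE) with an interval of -0.21 to 0.06 (edgeR adjusted p = 0.534).

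The plakophilins widen the plaque by bringing in desmoplakin. PKP2 (ENSG00000057294.14, chr12:32790745-32896840, minus strand) was at 33.9, 35.9 and 31.1 CPM in siRNA-NC and at 34.8, 31.2 and 38.8 CPM in si-AC010789.1. The groups overlapped, with the highest value in silenced replicate 3. Its log2 fold change was 0.05 ± 0.11 (SE) with an interval of -0.20 to 0.31 (edgeR adjusted p = 0.835), and it was -0.028 when silenced replicate 3 was left out.

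PKP3 (ENSG00000184363.9, chr11:392614-404908, plus strand) was at 42.5, 39.4 and 43.1 CPM in siRNA-NC and at 50.4, 47.2 and 38.9 CPM in si-AC010789.1. Silenced replicates 1 and 2 were above all controls and silenced replicate 3 was below them, the widest spread within a group among the 8 genes (1.30 from highest to lowest). Its log2 fold change was 0.13 ± 0.11 (SE) with an interval of -0.14 to 0.39 (edgeR adjusted p = 0.610).

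PKP4 (ENSG00000144283.21, chr2:158456964-158682879, plus strand), also known as p0071, is found at both desmosomes and adherens junctions. It was at 70.8, 77.9 and 73.9 CPM in siRNA-NC and at 70.3, 68.0 and 70.0 CPM in si-AC010789.1. The groups did not overlap, although the lowest control and the highest silenced library were close. The log2 fold change was -0.10 ± 0.06 (SE) with an interval of -0.24 to 0.05 (edgeR adjusted p = 0.470). Only 50.8 to 59.1% of PKP4 counts were in transcripts annotated as protein-coding, and over those alone the log2 fold change was 0.014. The antisense gene PKP4-AS1 overlaps an exon of PKP4 and had no row.

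DSP (ENSG00000096696.13, chr6:7541575-7586717, plus strand) encodes desmoplakin, the link to keratin. It was at 897, 901 and 899 CPM in siRNA-NC and at 906, 851 and 867 CPM in si-AC010789.1. The controls lay close together, while silenced replicate 1 was the highest and replicates 2 and 3 the lowest of the 6 libraries. The means were 899 ± 1.90 and 875 ± 28.2 CPM (SD, n = 3 each). The log2 difference was -0.04 ± 0.04 (SE) with an interval of -0.13 to 0.05, or 0.911 to 1.04 as a fold (edgeR adjusted p = 0.659).

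PERP (ENSG00000112378.11, chr6:138088505-138107511, minus strand), a p53 target whose product is needed for desmosome assembly in the skin, had the largest fitted difference of the 8, close to that of DSC2. It was at 404, 409 and 386 CPM in siRNA-NC and at 482, 439 and 449 CPM in si-AC010789.1. All silenced libraries were above all controls. The means were 399 ± 12.0 and 457 ± 22.5 CPM (SD, n = 3 each). The log2 difference was 0.19 ± 0.05 (SE) with an interval of 0.07 to 0.31, or 1.05 to 1.24 as a fold (edgeR adjusted p = 0.138).

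**Figure D1:**
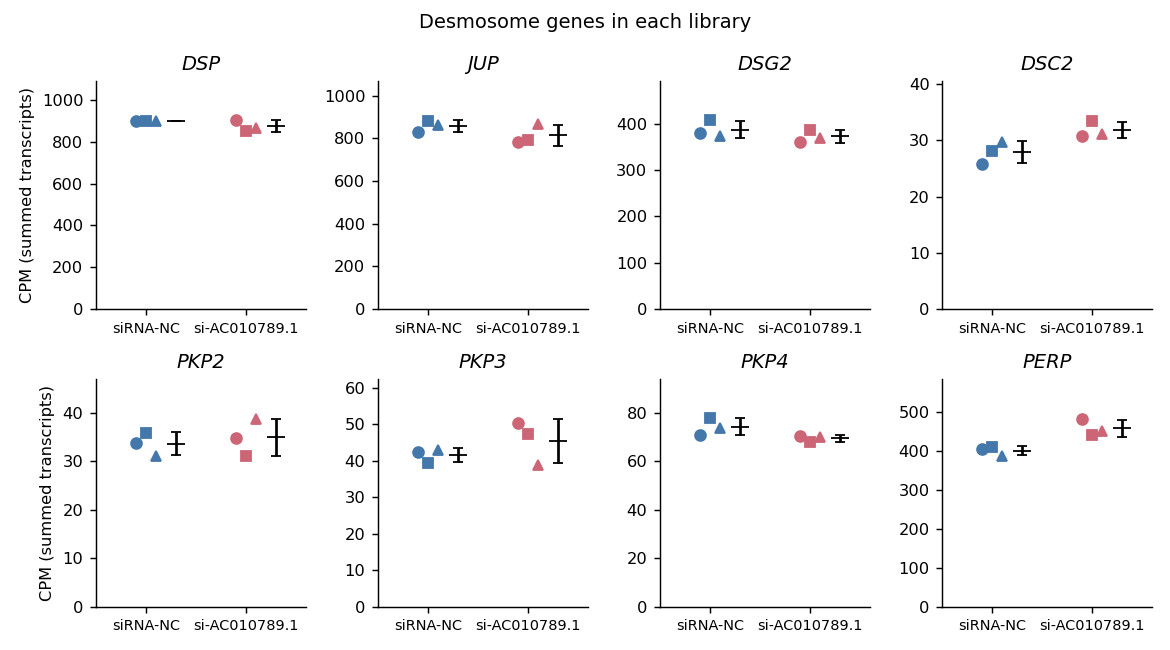
Counts scaled to library size (CPM, y axis from 0) of the 8 desmosome genes in each library, with circle, square and triangle for replicates 1, 2 and 3 of siRNA-NC (blue) and si-AC010789.1 (red), and the mean with SD beside each group. PERP and DSC2 were higher and PKP4 lower in all 3 silenced libraries, and the groups of the other 5 genes overlapped.

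The groups did not overlap in 3 of the 8 genes (PERP and DSC2 higher, PKP4 lower), and they did not overlap in 25.1% of all genes tested. An exact permutation test of 3 against 3 libraries gave p = 0.1 for each of these 3 genes, which is the smallest value it can give. It gives this value whenever the groups do not overlap, so it adds nothing to that. The summed CPM of the 8 genes was 2682 to 2782 in siRNA-NC against 2647 to 2735 in si-AC010789.1, and these ranges overlapped. None of the 8 genes had a range above 2-fold within a group, while 13.8% of all genes tested had. Over the 8 genes, the 95% intervals reached from -0.24 (PKP4) to 0.40 (DSC2) on the log2 scale.

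**Figure D2:**
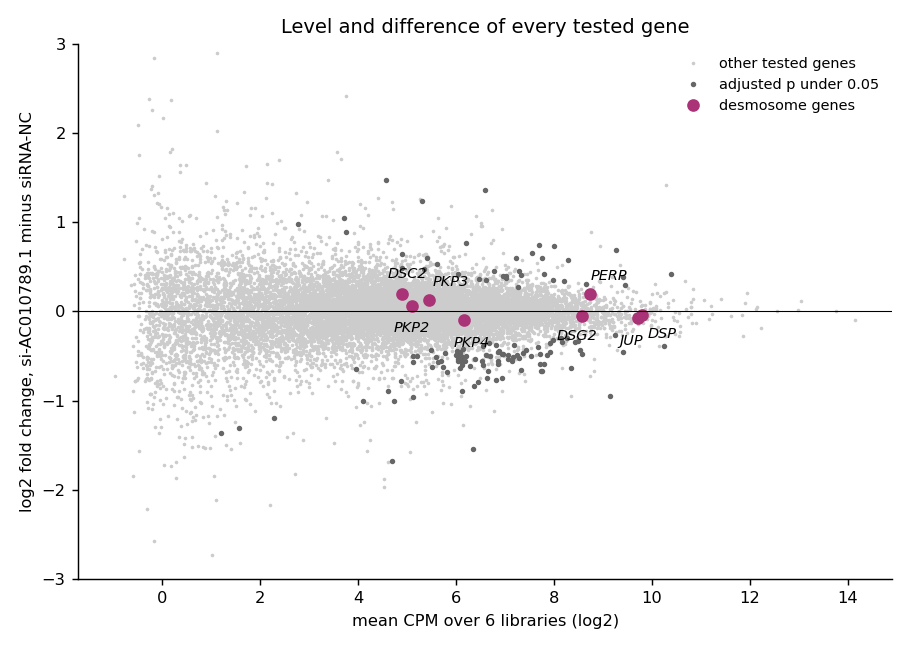
Log2 fold change (si-AC010789.1 minus siRNA-NC, y axis) against mean CPM over 6 libraries (log2, x axis) for the 13764 genes tested, with genes at an adjusted p under 0.05 in dark grey and the 8 desmosome genes in purple; 7 genes lie outside the y axis. The 8 genes lie close to 0, between -0.10 and 0.19, at low and at high levels.

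Levels between genes were compared per length (TPM, the share of a library's transcripts), computed from the counts and the annotated transcript lengths. JUP was the highest, at 507 to 583 TPM over the 6 libraries. DSP at 188 to 199 TPM and PERP at 172 to 216 TPM came next, and their ranges overlapped, so their order was not resolved. DSG2 followed at 120 to 136 TPM, clear of the genes on either side.

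The plakophilins and DSC2 were lower. Over all rows of each gene, PKP4 was at 41.2 to 54.9 TPM, PKP3 at 31.0 to 40.2 TPM and PKP2 at 16.8 to 22.0 TPM. These ranges did not overlap, although PKP4 and PKP3 nearly met. Of PKP4 counts, 40.9 to 49.2% were in rows other than protein-coding, such as PKP4-210 (2772 nt, against 5777 nt for PKP4-201). Shorter rows raise a level per length, so the place of PKP4 rests partly on them. The order over coding rows alone was not compared. DSC2 was the lowest of the 8, at 4.26 to 8.27 TPM. Its level per length varied more within a group than its CPM, of which the highest was at most 1.15 times the lowest. The share of its counts in the long a form (12325 nt) and in the shorter b form (4826 nt) differed between the libraries. Neither desmosomal cadherin was at the level of the plaque genes JUP and DSP.

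3 ratios of counts between the genes were compared within libraries. The ratio of DSG2 to DSC2 was 14.7, 14.5 and 12.6 in siRNA-NC against 11.7, 11.6 and 11.9 in si-AC010789.1. The groups did not overlap, and neither did those of DSC2 alone, so this ratio is not a separate result. The difference was -0.24 on the log2 scale (exact permutation test, two-sided, p = 0.1, adjusted over the 3 ratios p = 0.3), at the smallest p that this design allows. The ratio of both cadherins to the plaque genes DSP, JUP, PKP2, PKP3 and PKP4 was 0.216, 0.225 and 0.211 in siRNA-NC against 0.212, 0.236 and 0.213 in si-AC010789.1, with overlapping groups (exact permutation p = 0.8, adjusted p = 0.8). PKP2 to PKP3 was 0.797, 0.912 and 0.723 against 0.692, 0.660 and 0.998, also with overlapping groups (exact permutation p = 0.7, adjusted p = 0.8).

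The single transcripts were then compared. Of the 57 transcripts that GENCODE v29 gives these genes, 51 had a row and 27 passed the filter on low counts. None of the 27 passed the test (edgeR quasi-likelihood, lowest adjusted p = 0.730), beside 0.0135% of the 44297 transcripts tested, and DESeq2 also called 0 of the 27 (1.55% of those it gave an adjusted p). On simulated counts, where the transcripts to change were drawn at random, the same edgeR test missed all but some of the largest changes. Members of the 27 with a wide spread could therefore have changed without passing. DSP-201, DSP-202, DSG2-201, JUP-203 and PERP-201 had an SE of 0.04 to 0.06 on the log2 scale, and such rows were not simulated apart. An unadjusted edgeR p under 0.05 was found for 2 of the 27, DSP-201 and PERP-201, the only PERP row, and for 5.74% of all transcripts. The groups did not overlap in 3 of the 27, DSP-201, PERP-201 and JUP-204, and in 14.0% of all transcripts tested. Among the 27, 13 had a range above 2-fold within a group, as 65.6% of all transcripts tested had, although no summed gene among the 8 did.

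The desmoplakin forms took similar shares within each group. Of DSP counts, the long form DSP-201 took 60.1%, 57.8% and 60.0% in siRNA-NC against 54.9%, 56.8% and 55.9% in si-AC010789.1. The short form DSP-202, which lacks the 1797 coding bases described above, took 39.9%, 42.2% and 39.9% in siRNA-NC against 45.0%, 43.2% and 44.1% in si-AC010789.1. The short form's share was higher in all 3 silenced libraries than in any control, although replicate 2 of siRNA-NC (42.2%) and of si-AC010789.1 (43.2%) were close. The means were 40.7 ± 1.30% in siRNA-NC and 44.1 ± 0.932% with AC010789.1 silenced (SD, n = 3 each). On the log2 scale the difference was -0.14 ± 0.04 (SE) for DSP-201 (edgeR adjusted p = 0.730) and 0.07 ± 0.06 (SE) for DSP-202 (edgeR adjusted p = 0.986). The exact permutation p of the short form's share was 0.1, the smallest that 3 against 3 libraries can give. The difference in the log2 odds of the share was 0.20 ± 0.18 (SE, limma adjusted p = 0.934). That SE is drawn toward the spread of other transcripts of like abundance and does not measure the spread of the DSP shares alone.

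**Figure D3:**
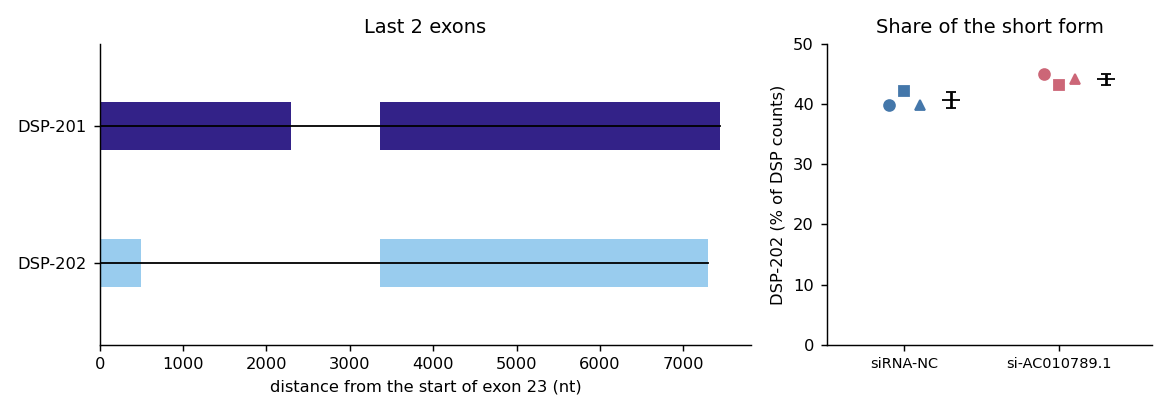
Left, the last 2 exons of DSP-201 and DSP-202 to scale, as distance from the start of exon 23 (nt); right, the share of DSP counts in DSP-202 (%, y axis from 0) in each library, with the mean and SD beside each group. Exon 23 is 1797 nt shorter in DSP-202, whose share was 39.9 to 42.2% in siRNA-NC against 43.2 to 45.0% in si-AC010789.1.

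The desmocollin 2 forms varied widely between libraries of the same group. The b form DSC2-201, with the added exon, was counted 9, 72 and 146 times in the control libraries against 56, 154 and 1 times in the silenced ones, or 3.09%, 19.4% and 36.9% against 15.9%, 36.8% and 0.260% of DSC2 counts. The a form DSC2-202 had 282, 300 and 250 counts against 296, 264 and 384. The silenced group held both the highest count of the b form and the lowest. Neither form passed the test (log2 fold change 0.22 ± 0.22 SE for the a form, edgeR adjusted p = 0.986; -0.01 ± 1.52 SE for the b form, edgeR adjusted p = 1.00), and with the SE of the b form a change of several fold was not detectable.

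JUP counts were spread over 11 rows. The leading transcript, JUP-203 (ENST00000393931), took 84.7%, 77.1% and 88.0% of JUP counts in siRNA-NC against 86.7%, 82.4% and 80.9% in si-AC010789.1, and the groups overlapped. JUP-201 (ENST00000310706) was counted 812, 911 and 344 times in the control libraries against 182, 1234 and 1420 times in the silenced ones. JUP-202 (ENST00000393930), named after its values were seen, had 3, 1024 and 100 counts against 236, 3 and 4. All 3 have the same coding sequence of 2235 bases and differ in untranslated exons, and together they took 91.4 to 94.9% of JUP counts in every library. The short JUP-204 (915 nt), also named after its values were seen, took 2.05%, 1.85% and 2.58% of JUP counts in siRNA-NC against 1.68%, 0.566% and 1.58% in si-AC010789.1, with no overlap (log2 fold change of its level -0.84 ± 0.47 SE, edgeR adjusted p = 0.926).

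**Figure D4:**
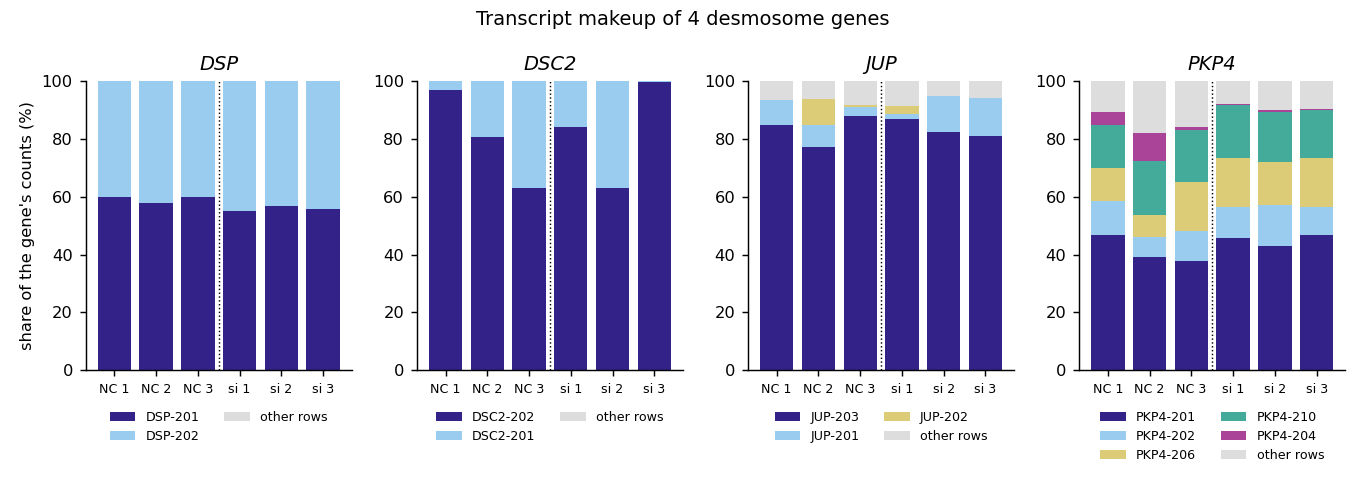
Share of each gene's counts (%, y axis from 0 to 100) taken by its main transcripts in the 6 libraries, for DSP, DSC2, JUP and PKP4, with siRNA-NC left and si-AC010789.1 right of the dotted line and the remaining rows in grey. The share of the leading transcript varies less within a group in DSP than in DSC2, JUP and PKP4.

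PKP4 had 16 rows, of which 12 are annotated as other than protein-coding. The leading coding transcript, PKP4-201, was counted 375, 404 and 371 times in the control libraries against 368, 365 and 403 times in the silenced ones. The second row, PKP4-210 (ENST00000480171), is a retained-intron transcript and took 14.9%, 18.7% and 18.0% of PKP4 counts against 18.3%, 17.5% and 16.7%. The groups overlapped for both. PKP4-202, with the added coding exon of 129 bases, took 11.5%, 7.07% and 10.6% against 10.7%, 14.1% and 9.84%. PKP4-204 (ENST00000421462), annotated as a target of nonsense-mediated decay, did not pass the filter and was named after its values were seen. The control libraries held 37, 100 and 10 of its counts and the silenced ones 3, 6 and 3. Its summed counts were 147 and 12, an 11.9-fold difference with an exact 95% counting interval of 6.58 to 23.5 that leaves out the spread between libraries. Without siRNA-NC replicate 2, it was 5.81-fold, and with all transcripts tested and no filter the edgeR adjusted p was 0.813.

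The remaining genes were carried almost wholly by a single transcript. DSG2-201 (ENST00000261590) took 99.6 to 99.9% of DSG2 counts, PKP2-202 (ENST00000340811) took 89.4 to 93.6% of PKP2 counts and PKP3-201 (ENST00000331563) took 91.1 to 96.7% of PKP3 counts. Their log2 fold changes were -0.06 ± 0.06, 0.06 ± 0.16 and 0.15 ± 0.15 (SE), with edgeR adjusted p of 0.986, 0.994 and 0.987. The second rows were small: DSG2-202 had 3 to 18 counts, PKP2-204 had 8 to 16 and PKP3-210 had 0 to 22 in a library.

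The transcript makeup of whole genes was tested in the 6 desmosome genes with at least 2 tested transcripts (DSP, JUP, DSC2, PKP2, PKP3 and PKP4). edgeR's diffSpliceDGE called none of the 6 (lowest adjusted p = 1.00, none with an unadjusted p under 0.05, none by its gene-level F test), beside 1.28% of the 9046 genes tested. A limma model of each transcript's share, added after the data were seen because many calls of the first test were wrong on simulated data, and itself with more wrong calls there than the threshold allows, also called none (lowest adjusted p = 1.00, none with an unadjusted p under 0.05), beside 0.951% of genes. Without si-AC010789.1 replicate 1, diffSpliceDGE called JUP (adjusted p = 0.0157), among 216 called of the 9563 genes tested in that run. Of the 25 desmosome transcripts whose share could be tested, 3 had groups that did not overlap: DSP-201, DSP-202 and JUP-204. The DSP-201 and DSP-202 shares mirror each other, so they are a single comparison. Groups did not overlap in 11.0% of all transcript shares.

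Other desmosomal genes, keratins and plakins were compared from lists. Of 7 desmosomal genes typical of stratified epithelium, DSG1, DSG3, DSC1 and CDSN had no row, DSG4 and PKP1 had at most 11 counts in a library, and DSC3 was the only gene tested. DSC3, another desmocollin, was at 17.1, 17.0 and 16.2 CPM in siRNA-NC and at 15.2, 10.1 and 12.1 CPM in si-AC010789.1. All silenced libraries were below the controls, with a log2 fold change of -0.43 ± 0.16 (SE, edgeR adjusted p = 0.240). This sign is opposite to that of DSC2, neither gene passed, and groups did not overlap in 25.1% of all genes tested. DSC2 was above DSC3 in every library on the CPM scale, which is not a comparison per length.

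Among 13 listed genes of the keratin and plakin families, 10 were tested and none passed (edgeR). DESeq2 called 1, KRT7, beside 5.21% of those it gave an adjusted p, and 2 of the 10 had an unadjusted edgeR p under 0.05, beside 17.2% of all genes. Of the 10, 3 had a higher and 7 a lower mean with AC010789.1 silenced, with a median log2 fold change of -0.05. KRT8, the main keratin of simple epithelia, was at 730, 850 and 576 CPM in siRNA-NC and at 500, 444 and 658 CPM in si-AC010789.1, with overlapping groups (log2 fold change -0.43 ± 0.19 SE, edgeR adjusted p = 0.311). PLEC, which encodes plectin, had a log2 fold change of -0.12 ± 0.11 (SE, edgeR adjusted p = 0.618). EVPL, which encodes envoplakin, was at 48.0, 41.6 and 51.8 CPM in siRNA-NC and at 47.0, 101 and 51.6 CPM in si-AC010789.1, with replicate 2 far above the other libraries (log2 fold change 0.50 ± 0.30 SE, edgeR adjusted p = 0.445).

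KRT7 and DST, named after their values were seen, were the 2 genes of this list whose groups did not overlap, beside 25.1% of all genes. KRT7 was at 145, 149 and 176 CPM in siRNA-NC and at 186, 209 and 202 CPM in si-AC010789.1 (log2 fold change 0.35 ± 0.09 SE, edgeR adjusted p = 0.128; DESeq2 adjusted p = 0.0316). DST, which encodes dystonin, was at 437, 411 and 397 CPM against 370, 340 and 356 CPM (log2 fold change -0.22 ± 0.05 SE, edgeR adjusted p = 0.120). KRT19, KRT20 and KRT23 had no row.

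Of 18 genes for the assembly and turnover of desmosomes, all were tested and none passed (edgeR), while DESeq2 called 2, beside 5.21% of those it gave an adjusted p, and 5 had an unadjusted edgeR p under 0.05, beside 17.2%. The signs were even, 9 higher and 9 lower, with a median log2 fold change of -0.006, and the groups did not overlap in 7 of the 18, beside 25.1% of all genes. The 2 that DESeq2 called were PAFAH1B1 and NDEL1, which encode the centrosomal proteins Lis1 and Ndel1 that help to place microtubules at desmosomes. PAFAH1B1 was at 122, 123 and 121 CPM in siRNA-NC and at 140, 147 and 139 CPM in si-AC010789.1 (log2 fold change 0.22 ± 0.04 SE, edgeR adjusted p = 0.0893, DESeq2 adjusted p = 0.0351). NDEL1 was at 61.7, 67.9 and 72.2 CPM against 52.1, 55.4 and 53.1 CPM (log2 fold change -0.33 ± 0.08 SE, edgeR adjusted p = 0.111, DESeq2 adjusted p = 0.0394). The products of these genes bind each other, and the differences had opposite signs. EGFR, whose activity loosens desmosomes, had a log2 fold change of -0.07 ± 0.04 (SE, edgeR adjusted p = 0.426), and ATP2A2, the calcium pump mutated in Darier disease, of -0.14 ± 0.10 (SE, edgeR adjusted p = 0.549).

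**Figure D5:**
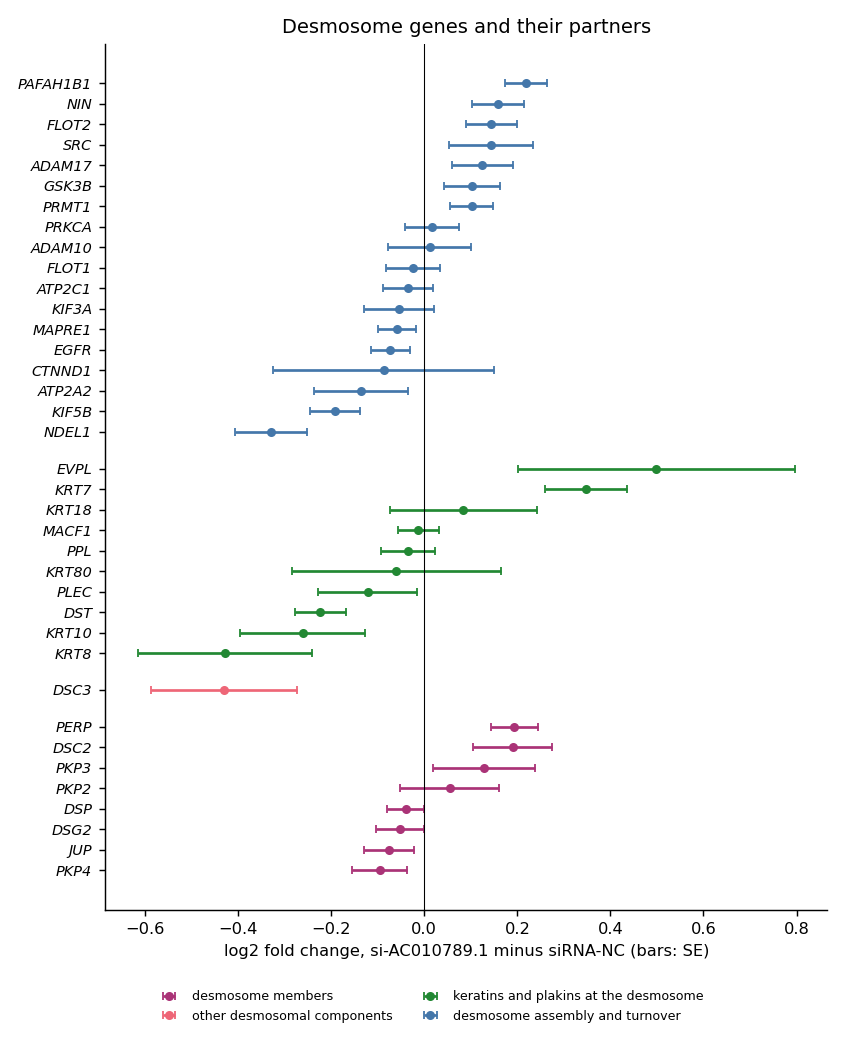
Log2 fold change (si-AC010789.1 minus siRNA-NC, x axis) with its SE as bars for the 8 desmosome genes (purple), DSC3 (red), 10 keratins and plakins (green) and 18 genes of desmosome assembly and turnover (blue). None of these passed the edgeR test, and the 8 desmosome genes lie between -0.10 and 0.19.

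The genes most like DSP in their pattern over the 6 libraries were CLDN4, ASF1A and MTHFD1, with Pearson r of 0.99, 0.99 and 0.98 between log2 CPM values. The 6 points share their libraries, and 43 genes had an r above 0.95. All 4 genes were lowest in silenced replicates 2 and 3, which adds nothing to a likeness they were picked for, and the sizes differed. With a prior count of 2, the log2 CPM of DSP ranged over 0.09, that of MTHFD1 over 0.19 and that of ASF1A over 0.42. CLDN4, which encodes the tight junction protein claudin-4, was at 25.7, 22.5 and 24.5 CPM in siRNA-NC and at 28.9, 0.320 and 1.78 CPM in si-AC010789.1. Its log2 CPM ranged over 5.92 with the same prior count.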

How the data were processed

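Total RNA of 6 HCT116 samples was made into paired-end TruSeq libraries and sequenced. The submitters' processing notes name CASAVA 1.8, TopHat2 2.0.6 and the builds GRCh38 and mm10, and the study's methods name Cuffdiff. The authors deposited whole-number counts per Ensembl transcript, not normalized. How reads shared by several transcripts were divided is not given in the sources used here, and it bears on every single-transcript value. Of 98886 transcripts, 98803 matched GENCODE v29 (GRCh38) and held 99.907 to 99.941% of the counts. A count of 3 is 0.223 to 0.266 CPM. Intervals on counts cover counting error only.

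Transcript counts were summed per gene in Python 3.11.15. Genes and transcripts were tested with edgeR 4.0.16 (R 4.3.3; TMM scaling, filterByExpr, quasi-likelihood F test, Benjamini-Hochberg adjustment over all features, threshold 0.05). Tests were checked on simulated counts. There the gene test recovered 72.7%, 95.5% and 97.0% of genes changed by 1, 2 and 6 on the log2 scale. Changes as small as those of the desmosome genes (at most 0.19) were not simulated. Of its calls, 6.88% were wrong, also above the threshold. The transcript test recovered only some of the largest changes. Both makeup tests made more wrong calls than the threshold allows (32.1% of calls for diffSpliceDGE and 12.8% for the limma model). Transcript makeup was tested with diffSpliceDGE (Simes) and, as an addition, with limma 3.58.1 on the log2 odds of each transcript's share. DESeq2 1.42.0 was an alternative. Ratios were tested by exact permutation, two-sided. TPM used full annotated lengths.

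The genes and lists were chosen with earlier results of these data known. Named were the 8 genes, the 2 most abundant transcripts of each, any transcript that passed the test or differed by over 1 (log2) without overlap, from each list the genes that passed or otherwise the 2 highest and the 2 with the largest change, and the 3 genes most like DSP. AC010789.1 was not analysed here, and 1 transcript sequence is not reported here.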

Additional observations from a re-analysis of the deposited data

How the results depend on the processing

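No desmosome gene and no desmosome transcript passed the test in any alternative run (DESeq2, 2 other scalings, no filter, at least 1 CPM, replicate block, and each library left out; for genes also protein-coding transcripts only), with a lowest adjusted p of 0.0928 for a gene (PERP, DESeq2). Over these, 2 of 104 gene values changed sign: PKP4 to 0.014 over protein-coding transcripts only, and PKP2 to -0.028 without si-AC010789.1 replicate 3 (-0.028 to 0.13 with each library left out). Counts over all features depended on the setting. All genes called went from 130 to 522 with DESeq2, 69 with no filter, 56 over protein-coding transcripts only and 12 to 37 with each library left out. All transcripts called went from 6 to 676 with DESeq2, 0 with no filter and 0 to 6 with each library left out. Genes with a changed makeup went from 116 to 175 by the gene-level F test, 179 with a mean of at least 1 CPM and 208 to 261 with each library left out, where the desmosome genes called were 0 to 1. With the replicate number as a block, 0 genes, 0 transcripts and 70 makeups were called; same-numbered libraries deviated together with r of 0.11, 0.01 and 0.02, which was not over 0.1 for every pair, and the numbers were not taken to pair the samples; whether a number marks a shared cell generation is not given in the sources used here. With 200 nt taken off each transcript's length and 2418 rows of up to 300 nt left out, the mean levels moved from 194 to 170 TPM for DSP, 553 to 527 for JUP, 127 to 112 for DSG2 and 193 to 173 for PERP. The causes were not tested. Depth limits the rows of a few counts, such as the second rows of DSG2, PKP2 and PKP3.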
